A study of Mus musculus with 5 samples.

Results

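Broad WT1 peaks, meaning continuous stretches of CUT&RUN coverage at least 10000 bp wide, were described in 4 deposited peak lists of mouse mesonephric cells. The regions were selected on measured peak width. Peaks of that width were taken from each list, chromosome X and the part of chromosome 10 from 117 to 128 Mb were left out, and the remaining peaks were merged wherever they shared 1 bp. This gave 257 merged regions, and 6 of them held a broad peak in at least 2 libraries. These 6 regions are the subject here. The other 251 were broad in 1 library, and in 247 of them that library was KTS-minus replicate 1.

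The KTS-minus group was a line derived from M15 cells by editing of the KTS isoforms of WT1 (2 libraries, anti-WT1 antibody), and the M15 group was the M15 line itself (2 libraries, same antibody). M15 cells are mouse mesonephric epithelium transformed with the large T antigen of polyoma virus, so both groups carry that antigen. The labels do not say which isoform the edited cells still make or whether the line is 1 clone, and nothing in them says that replicates came from separate cultures. An IgG library of M15 cells belongs to the series and was not analysed here.

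WT1 acts in kidney and gonad development and binds short GC-rich DNA motifs through its zinc fingers. Alternative splicing inserts or skips KTS, a run of lysine, threonine and serine, and so changes the spacing of those fingers, with the form that skips it the better known DNA binder. In CUT&RUN, an antibody on chromatin recruits a nuclease that releases the DNA next to the bound protein. A factor that sits at short motifs usually gives narrow peaks, whereas chromatin marks that spread along a domain often give wide ones. SEACR, the peak caller named by the submitters, joins neighbouring covered bases into 1 block and can also join blocks across short gaps. Peak width here is thus the length of such a joined stretch, which need not be covered at every base.

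Outside chromosome X and the chromosome 10 segment, the lists held 289127 and 218610 peaks in KTS-minus replicates 1 and 2, and 6014 and 52451 in M15 replicates 1 and 2. Broad peaks numbered 253 and 7 in the KTS-minus lists and 2 and 3 in the M15 lists. They made up 0.0875% and 0.0032% of the KTS-minus peaks and 0.0333% and 0.00572% of the M15 peaks. Median peak width was 1103 and 673 bp in KTS-minus and 1644.5 and 1003 bp in M15. Width was the selection criterion, so these numbers describe the lists and test nothing. Read depth is unknown, and coverage units have no common scale between lists. An exact permutation test of 2 libraries against 2 cannot go below p = 0.33, so no test between the lines is given.

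KTS-minus replicate 1 was broad at all 6 regions, and the outcome depends on it. KTS-minus replicate 2 was broad at 4 of them, M15 replicate 1 at 1 and M15 replicate 2 at 3. Both KTS-minus libraries were broad at 4 regions and both M15 libraries at 1. No region was broad in all 4 libraries, and 2 were broad in 3. Without KTS-minus replicate 1, 2 regions met the rule, the second chromosome 11 region and the third chromosome 4 region described below. Without KTS-minus replicate 2, 3 regions met it. Of the few broad peaks in the other lists, the 6 regions took in 4 of 7 in KTS-minus replicate 2, 1 of 2 in M15 replicate 1 and 3 of 3 in M15 replicate 2.

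The 6 regions covered 156356 bp and lay on 3 chromosomes: 1 on chromosome 1, 2 on chromosome 11 and 3 on chromosome 4. Their spans ran from 16442 to 49015 bp, with a median of 18634 bp. Chromosome 4 thus held 50% of the regions, with 22 (8.56%) of the 257 merged broad regions and 6.29% of the length of chromosomes 1 to 19. Chromosomes 6 and 19 held the most merged broad regions, 70 and 45, and none of the 6. All 6 regions are described in full below.

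**Figure D1:**
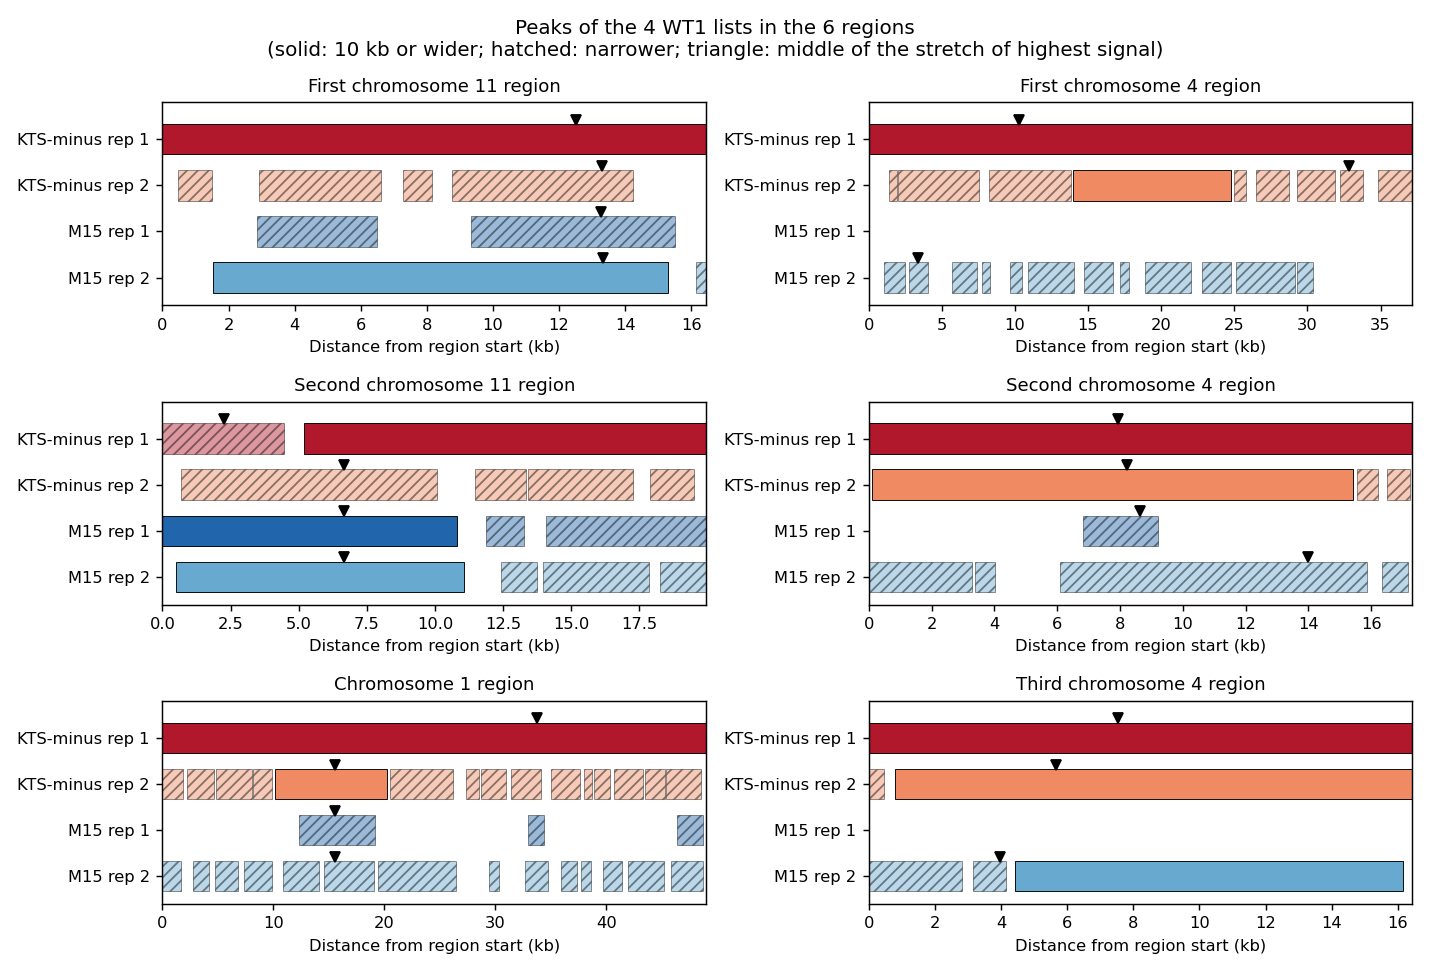
Peaks of the 4 lists inside each of the 6 regions, drawn against distance from the region start in kb. Solid bars are peaks of 10 kb or more, hatched bars are narrower peaks, and triangles mark the middle of the deposited stretch of highest signal. In the chromosome 1 region and both chromosome 11 regions the triangles of KTS-minus replicate 2 and both M15 libraries line up. In the second chromosome 4 region those of both KTS-minus libraries and M15 replicate 1 lie close together. M15 replicate 1 has no bar in 2 of the chromosome 4 regions.

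The second chromosome 11 region was the one broad in both M15 libraries. It ran from 98796735 to 98816692, a span of 19958 bp. KTS-minus replicate 1 listed a peak of 14748 bp there with a mean coverage of 9.94. KTS-minus replicate 2 had no broad peak, and its widest reached 9400 bp, just under the threshold. M15 replicate 1 listed 10803 bp at a mean coverage of 18.3, the widest peak of that list outside the parts left out. M15 replicate 2 listed 10575 bp at a mean coverage of 10.5, the number 3 of its list by width. The libraries thus held nearly the same stretch, cut at different points: peaks covered 96.3% and 83.5% of the span in KTS-minus replicates 1 and 2 and 90.6% and 87.8% in M15 replicates 1 and 2. All 4 libraries together covered 69.8% of its bases, the highest share among the 6 regions.

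The stretches of highest signal in that region nearly coincided in 3 libraries. KTS-minus replicate 2 and M15 replicate 1 reached their maxima, 69 and 103, on overlapping bases around 6647.5 bp from the region start. M15 replicate 2 reached its maximum of 44 at 18 bp from both. The maximum of KTS-minus replicate 1, 60, lay in a neighbouring narrower peak, 4366 bp away from the maximum of KTS-minus replicate 2. Each list also has a further peak or peaks in the right-hand part of the span, separated from the first by 1411 bp or less in every library.

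The first chromosome 11 region ran from 69219195 to 69235648 and spanned 16454 bp. It was broad in KTS-minus replicate 1, with a peak of 16454 bp and a mean coverage of 10.2, and in M15 replicate 2, with 13762 bp and a mean coverage of 8.36. The M15 replicate 2 peak was the widest of its list outside the parts left out. KTS-minus replicate 2 held 4 narrower peaks there, the widest of 5473 bp, and M15 replicate 1 held 2, of 3641 and 6158 bp. Coverage of the span was 100% and 67.2% in KTS-minus replicates 1 and 2 and 59.6% and 85.5% in M15 replicates 1 and 2. Max signal in the span was high in every list, with or without a broad peak: it stood at the 99.88th and 99.98th percentile of KTS-minus replicates 1 and 2 and at the 99.38th and 99.83rd of M15 replicates 1 and 2. This was shared by the second chromosome 11 region and the chromosome 1 region, whose lowest percentiles were 96.4 and 96.3, both in M15 replicate 1. Each value is that of the highest peak in the span, ranked against single peaks, which raises it. The maxima of the 2 libraries without a broad peak, 140 in KTS-minus replicate 2 and 159 in M15 replicate 1, lay 23 bp apart, and that of M15 replicate 2 lay 3 bp from the first of them and 33 bp from the second. The maximum of KTS-minus replicate 1 lay 791 bp from that of KTS-minus replicate 2.

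The chromosome 1 region was the longest, 49015 bp from 90140446 to 90189460. In KTS-minus replicate 1 it was 1 peak, the widest of that list outside the parts left out, with a mean coverage of 13.6 and a max signal of 65. KTS-minus replicate 2 split the same span into 15 peaks, of which 1 was broad at 10033 bp, with a mean coverage of 16.5. M15 replicate 1 held 3 peaks, the widest of 6811 bp, and M15 replicate 2 held 14, the widest of 6997 bp. Covered shares were 100% and 89.1% in KTS-minus replicates 1 and 2 and 21.7% and 72.6% in M15 replicates 1 and 2. The interruptions in KTS-minus replicate 2 were short, with a median gap of 268.5 bp and a largest gap of 1193 bp. In M15 replicate 2 the median gap was 589 bp and the largest 2983 bp, and in M15 replicate 1 both gaps exceeded 10 kb, at 11978 and 13858 bp. As on chromosome 11, the maxima of KTS-minus replicate 2 (91), M15 replicate 1 (102) and M15 replicate 2 (30) sat together, within 51 bp, and the maximum of KTS-minus replicate 1 was 18127 bp away from that of KTS-minus replicate 2. A further KTS-minus replicate 1 peak of 32281 bp ended 285 bp to the left of this region.

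The remaining 3 regions lay on chromosome 4. The first ran from 145693706 to 145730882 (37177 bp), the second from 146763264 to 146780573 (17310 bp) and the third from 146792424 to 146808865 (16442 bp). The first and second were 1032381 bp apart, and the second and the third 11850 bp. Both KTS-minus libraries were broad at all 3, whereas M15 replicate 1 was broad at none of them. M15 replicate 2 was broad at the third only.

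The first chromosome 4 region was 1 peak of 37177 bp in KTS-minus replicate 1, with a mean coverage of 9.85. KTS-minus replicate 2 held 9 peaks, including a broad one of 10860 bp at a mean coverage of 11.7. M15 replicate 1 listed no peak there, and M15 replicate 2 listed 12, none wider than 4009 bp. Coverage of the span was 100% and 86.7% in KTS-minus replicates 1 and 2 and 0% and 58.7% in M15 replicates 1 and 2. The maxima were 42 and 59 in KTS-minus and 13 in M15 replicate 2. The closest of these, in KTS-minus replicate 1 and M15 replicate 2, were 6813 bp apart.

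The second chromosome 4 region had broad peaks of 17310 and 15311 bp in KTS-minus replicates 1 and 2, at mean coverages of 12.6 and 13.0. The KTS-minus replicate 2 peak was the second widest of its list outside the parts left out. M15 replicate 1 held 1 peak of 2387 bp whose max signal of 10 was at the 0.528th percentile of its list. M15 replicate 2 held 4 peaks, of which the widest, 9753 bp, fell just short of the threshold. Coverage was 100% and 96.6% in KTS-minus replicates 1 and 2 and 13.8% and 83.8% in M15 replicates 1 and 2. The maxima of KTS-minus replicate 2 and M15 replicate 1 lay 183 bp apart. Both overlapped the stretch of highest signal of KTS-minus replicate 1, which was 8371 bp long. The maximum of M15 replicate 2 lay 4540 bp from that of KTS-minus replicate 2.

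The third chromosome 4 region was broad in 3 libraries. Widths were 16421 and 15638 bp in KTS-minus replicates 1 and 2 and 11739 bp in M15 replicate 2, at mean coverages of 16.3, 17.8 and 5.66. The KTS-minus replicate 2 peak was the widest of its list outside the parts left out. M15 replicate 1 had no peak there. The maxima of the other libraries lay from 1644 to 3378 bp apart. Coverage was 99.9% and 97.9% in KTS-minus replicates 1 and 2 and 0% and 94.7% in M15 replicates 1 and 2. An empty span of this length was common in M15 replicate 1, whose list covered 0.491% of chromosome 4: of windows of 19000 bp along chromosomes 1 to 19, 95.5% held no peak of that library.

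Signal shape differed among the regions. The ratio of max signal to mean coverage inside the broad peaks was lowest at the third chromosome 4 region, 2.45 and 2.98 in KTS-minus replicates 1 and 2 and 2.65 in M15 replicate 2. Over all 7 broad peaks of the chromosome 4 regions it ran from 2.45 to 4.27. It was not compared with the ratio in other peaks of the lists, so these values are low only beside the other regions. Over the 7 broad peaks of the chromosome 1 and 11 regions it ran from 4.17 to 5.63, so these held taller summits for their mean. The sets met only in the narrow range from 4.17 to 4.27. With 3 regions in each set and libraries shared between them, this is a description.

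Broad peaks of the 6 regions were not only long but also had high mean coverage within their own lists. In KTS-minus replicate 1 their mean coverage lay between the 98.7th and 99.9th percentile of all peaks. In KTS-minus replicate 2 it lay between the 79.5th and 96.8th percentile. The M15 replicate 1 peak was at the 90.2nd percentile, and those of M15 replicate 2 between the 94.2nd and 99.5th. Relative to the median of peaks under 10 kb, their median mean coverage was 2.23 and 1.69 times as high in KTS-minus replicates 1 and 2 and 1.78 and 2.61 times as high in M15 replicates 1 and 2. Against peaks from 5000 bp up to the threshold the ratio was lower in every list, 1.87 and 1.22 in KTS-minus replicates 1 and 2 and 1.68 and 1.59 in M15 replicates 1 and 2. With chromosome X and the chromosome 10 segment kept in, the ratio for M15 replicate 1 turned to 0.898. In KTS-minus replicate 1 the 6 peaks had a median mean coverage of 11.4, against 7.51 for the 247 regions broad in that library alone. This did not extend to KTS-minus replicate 2, whose 4 broad peaks in the 6 regions had 11.7, 13.0, 16.5 and 17.8 and whose 3 broad peaks elsewhere had 11.5, 16.5 and 18.5. M15 replicate 1 had 18.3 in its broad peak of the 6 regions and 12.3 in its other one, and M15 replicate 2 had no broad peak elsewhere. A peak is kept by its summed signal, and width and height come from the same reads, so these values are not independent of the selection.

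**Figure D2:**
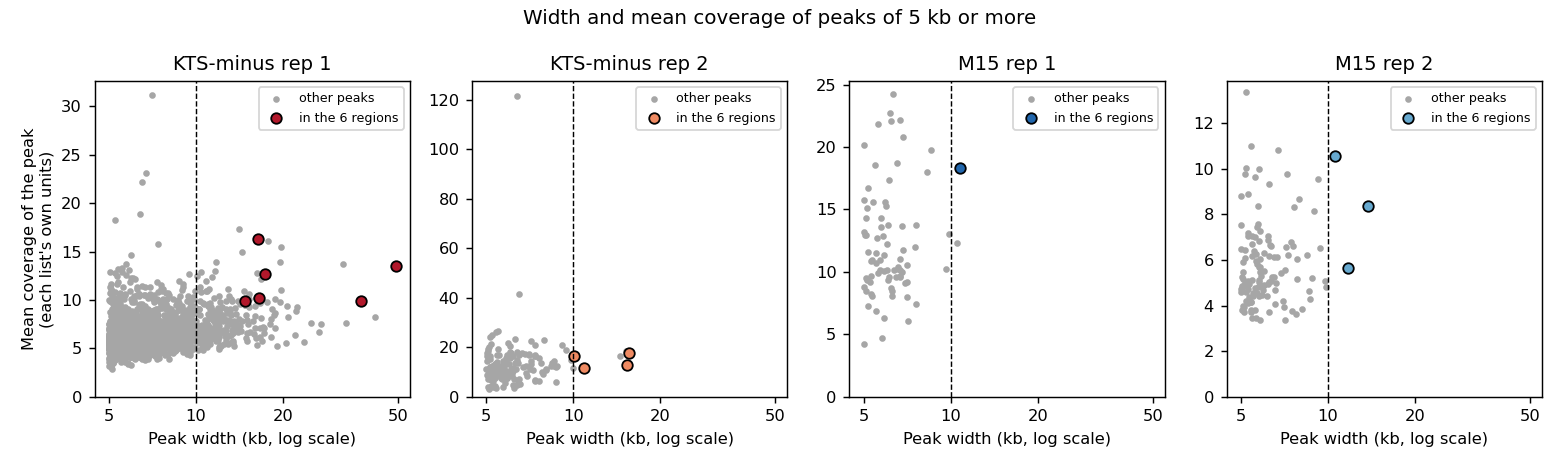
Mean coverage of each peak of 5 kb or more, in its list's own units, against peak width in kb on a log axis, for the 4 lists outside the parts left out. Coloured points are the 14 broad peaks of the 6 regions and the dashed line is the 10 kb threshold. KTS-minus replicate 1 has 253 points right of the line, and the other panels have 7, 2 and 3.

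The libraries without a broad peak often held several narrower peaks in the same span. This was the case, with 2 or more peaks, for 2 of 2 such regions in KTS-minus replicate 2, for 2 of 5 in M15 replicate 1 and for 3 of 3 in M15 replicate 2. KTS-minus replicate 1 had no such region. For comparison, chromosomes 1 to 19 without the segment left out were tiled with 126511 windows of 19000 bp that touched none of the 6 regions. Of these, 59.2% and 47.6% held 2 or more peaks in KTS-minus replicates 1 and 2, and 0.625% and 9.85% did in M15 replicates 1 and 2. The windows are shorter than the chromosome 1 region (49015 bp) and the first chromosome 4 region (37177 bp), and a longer span can hold more peaks, so the shares are a guide only. For KTS-minus replicate 2, whose 2 regions are close to the windows in length, several peaks in such a span were ordinary, and with 2 regions nothing is read from the count. At the 247 regions broad in KTS-minus replicate 1 alone, 2 or more peaks were found in 97.6% for KTS-minus replicate 2, 26.7% for M15 replicate 1 and 89.1% for M15 replicate 2. Several narrower peaks inside a broad stretch of KTS-minus replicate 1 were thus not particular to the 6 regions.

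The gaps between those narrower peaks varied, and the values below are the smallest gap allowance that gives a stretch of 10 kb. Larger gaps remained in M15 replicate 2. Its largest were 2983 bp at the chromosome 1 region and 1610 and 2073 bp at the first and second chromosome 4 regions. Gaps were not compared with those of other windows. In M15 replicate 2, joining its own peaks across gaps of up to 407 bp at the chromosome 1 region, 755 bp at the first chromosome 4 region and 468 bp at the second would have made a stretch of 10 kb or more. In KTS-minus replicate 2 this took 650 bp at the first chromosome 11 region and 1411 bp at the second. M15 replicate 1 needed 2862 bp at the first chromosome 11 region and 11978 bp at the chromosome 1 region. At the 3 chromosome 4 regions its peaks gave no such stretch at any gap.

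The 6 regions were more fully covered than most windows, as were other broad stretches of KTS-minus replicate 1. The 99th percentile of windows was 71.2% and 34.8% covered in KTS-minus replicates 1 and 2 and 12.7% and 28.7% in M15 replicates 1 and 2. All 6 regions were above that value in both KTS-minus libraries and in M15 replicate 2, which follows in part from the rule, and 4 of 6 were above it in M15 replicate 1. Where a library had no broad peak, its width did not decide the choice. Among those cases, coverage was 67.2% and 83.5% in KTS-minus replicate 2 (the chromosome 11 regions), between 0% and 59.6% in M15 replicate 1, and 72.6%, 58.7% and 83.8% in M15 replicate 2 (the chromosome 1 region and the first and second chromosome 4 regions). At the 247 regions broad in KTS-minus replicate 1 alone, median coverage was 53.4% in KTS-minus replicate 2 and 14.9% and 44.2% in M15 replicates 1 and 2, also above the 99th percentile of windows in each list. In M15 replicate 1 that median was no lower than the median of 13.8% over the 5 regions in which it had no broad peak. A span of 0% in M15 replicate 1 equals the median window of that list.

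**Figure D3:**
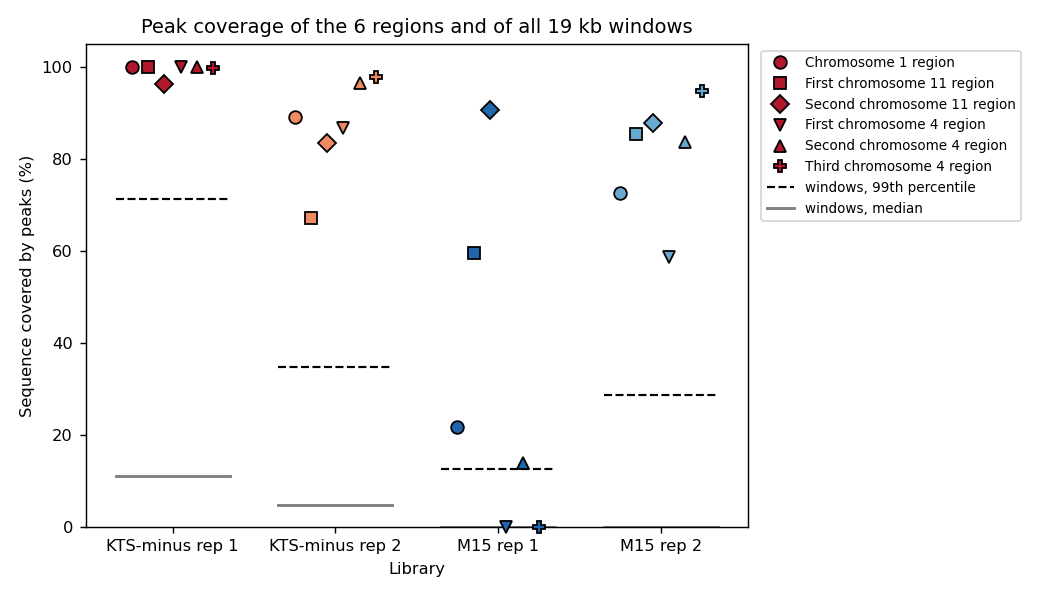
Percent of sequence covered by peaks in each of the 6 regions (symbols), for the 4 libraries, beside the median (grey line) and the 99th percentile (dashed line) of 126511 windows of 19 kb. In both KTS-minus libraries and in M15 replicate 2 all 6 symbols lie above the dashed line, and in M15 replicate 1 they spread from 0% to 90.6%.

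In both KTS-minus libraries and in M15 replicate 2 the surroundings of all 6 regions were more densely covered than the mean window, most of all on chromosome 4. In M15 replicate 1 the flanks of the first chromosome 4 region were empty, and the densest flanks were those of the chromosome 11 regions, 5.66% and 10.1% covered. Over 100 kb on each side, the third chromosome 4 region had 81.0% and 58.9% covered in KTS-minus replicates 1 and 2 and 3.70% and 34.9% in M15 replicates 1 and 2. The second gave 80.0% and 56.3% in KTS-minus and 2.50% and 37.3% in M15. These flanks include the neighbouring region, since the second and the third lie 11850 bp apart. The first gave 53.1% and 41.0% in KTS-minus and 0% and 25.3% in M15. The mean window was 16.1% and 7.01% covered in KTS-minus and 0.457% and 2.47% in M15. Coverage of the third region was 1.23 and 1.66 times that of its flanks in KTS-minus replicates 1 and 2, and 2.71 times in M15 replicate 2. The regions were chosen for wide peaks, so in libraries with a broad peak a ratio above 1 largely follows from the rule. In KTS-minus replicate 1 all 6 regions were at least 96.3% covered, so there the ratio mainly restates flank coverage.

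At the chromosome 11 regions the flanks were emptier relative to the regions. The second chromosome 11 region had 48.6% and 16.2% of its flanks covered in KTS-minus replicates 1 and 2 and 10.1% and 19.7% in M15 replicates 1 and 2. Region over flank was 1.98 and 5.15 times in KTS-minus and 9.01 and 4.46 times in M15. At the first chromosome 11 region it was 2.63 and 3.40 times in KTS-minus and 10.5 and 5.32 times in M15. At the chromosome 1 region it was 2.77 and 3.72 times in KTS-minus and 14.9 and 3.79 times in M15. In every list, the ratio at the second and the third chromosome 4 region was below that at the first chromosome 11 region. The flanks of those chromosome 4 regions include each other. At the first chromosome 4 region the ratio was 1.88 and 2.12 in KTS-minus replicates 1 and 2 and 2.31 in M15 replicate 2. In KTS-minus replicate 1 this was close to the 1.98 of the second chromosome 11 region.

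**Figure D4:**
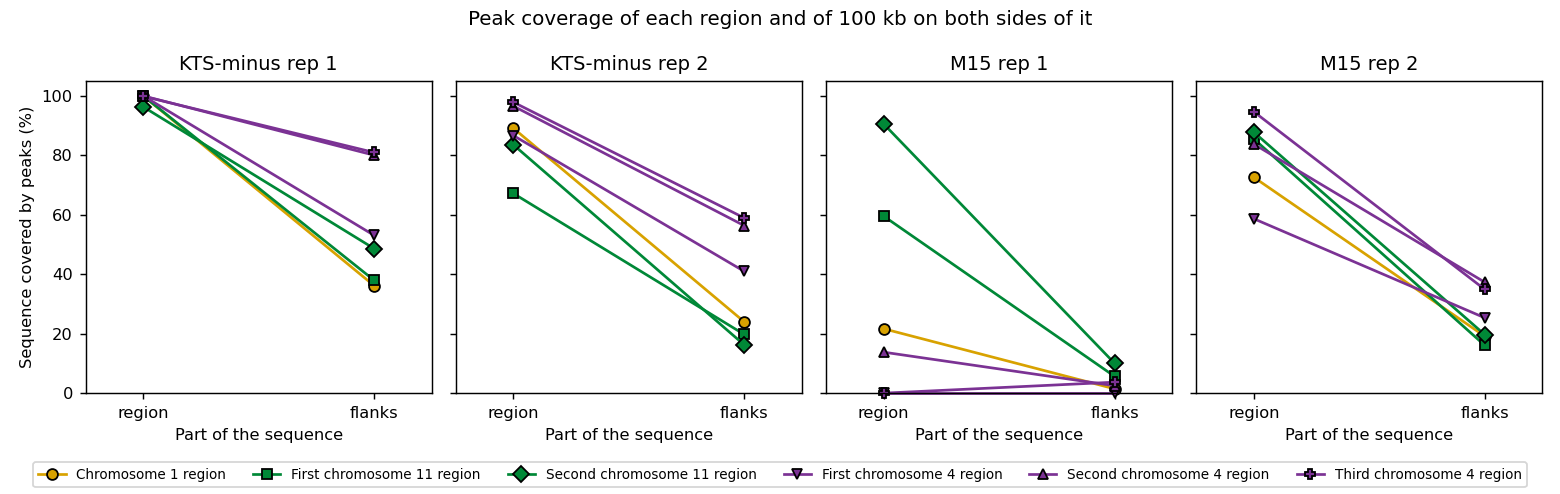
Percent of sequence covered by peaks in each region and in 100 kb on both sides of it, for the 4 libraries, with purple lines for chromosome 4, green for chromosome 11 and yellow for chromosome 1. In the KTS-minus panels the flanks of the purple regions are 41.0% to 81.0% covered. The first chromosome 4 region falls from 100% to 53.1% in KTS-minus replicate 1 and from 86.7% to 41.0% in replicate 2. M15 replicate 1 covers the green regions to 59.6% and 90.6% and the purple ones to at most 13.8%.

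The chromosome 4 stretch that holds all 3 regions, 1.12 Mb from 145693706 to 146808865, was dense as a whole in 3 of the lists. Peaks covered 52.8% and 40.3% of it in KTS-minus replicates 1 and 2, against 16.7% and 7.54% of the rest of the chromosome. In M15 replicate 2 the shares were 24.5% and 2.30%, and in M15 replicate 1 they were 0.877% and 0.488%, from 3 peaks. Peaks numbered 178 and 244 per Mb in KTS-minus replicates 1 and 2, against 130 and 98.1 in the rest of the chromosome. In M15 replicates 1 and 2 they numbered 2.69 and 158 per Mb, against 2.64 and 20.3. The peaks of this stretch had a mean coverage of 7.42 and 9.57 in KTS-minus replicates 1 and 2, where other chromosome 4 peaks had 5.17 and 8.56. In M15 replicates 1 and 2 the values were 4.51 and 4.04, where other chromosome 4 peaks had 10.6 and 3.68. The stretch is bounded by the regions themselves, and all these values include them. Without the bases of the 3 regions, coverage was 49.6% and 36.8% in KTS-minus replicates 1 and 2 and 0.708% and 21.2% in M15 replicates 1 and 2. Of the 22 broad chromosome 4 peaks of KTS-minus replicate 1, 9 lay in the stretch, those of the 3 regions included. M15 replicate 1, the shortest list, had 3 peaks in the stretch, too few to say whether the stretch stood out there. Its peak number per Mb was close to that of the rest of the chromosome, 2.69 against 2.64. Its covered share was higher, 0.877% against 0.488%.

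Close to the threshold, 10033 bp in the chromosome 1 region (KTS-minus replicate 2) and 10575 bp in the second chromosome 11 region (M15 replicate 2) were the narrowest broad peaks that entered. Just outside were 6 regions with a broad peak in 1 library and a peak of 9000 bp or more in another. On chromosome 6 from 52105870 to 52117625, KTS-minus replicate 1 had a broad peak and M15 replicate 1 one of 9865 bp. On chromosome 5 from 26414380 to 26430541 the second width was 9828 bp, in KTS-minus replicate 2, and on chromosome 15 from 78669030 to 78683243 it was 9822 bp, in M15 replicate 2. The remaining 3 had second widths of 9411, 9228 and 9110 bp. At a threshold of 8000 bp, 23 regions met the rule, on 9 chromosomes, with 5 each on chromosomes 4 and 5. The second chromosome 11 region was then the only one broad in all 4 libraries. Joining the peaks of each list across gaps of up to 1000 bp before the threshold was applied gave 125 regions, of which 99 were broad in both KTS-minus libraries and 1 in both M15 libraries.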

How the data were processed

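WT1 CUT&RUN libraries of KTS-minus and M15 cells (2 each) were used. Peaks came from SEACR 1.3 on build mm9, with Bowtie2 2.2.6, SAMtools 1.3, Picard 2.5.0, FastQC 0.11.8 and bedtools 2.23.0 also named, per the submitters' processing notes. The deposited signal columns hold total and highest coverage per peak as whole numbers, which are the authors' own values. The sources used here do not give scaling, control or threshold, and depth is unknown. Lists were called per library.

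Mean coverage is total signal over the whole peak width, any joined gap included, and the percentiles of signal and coverage are within the whole list. A peak touching the chromosome 10 segment counted as inside it. Windows started at the first listed peak of each chromosome, and chromosome length was taken as the end of the last one. Coordinates are mm9, counted from 1. The gene tables at hand are GRCm38, so no gene, exon, promoter or sequence was assigned. Regions were named by a rule that took up to 6 per class, which named all 6. No test was run, since regions are not replicates. The members and lists were chosen with earlier results of these data known. Python 3.11.15, numpy 2.4.6, pandas 2.3.3, scipy 1.17.1 and matplotlib 3.10.9 were used, and the merging step was tested on simulated data. Alternatives changed the width threshold, the overlap, the joining of peaks, the parts left out and the libraries used.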

Additional observations from a re-analysis of the deposited data

How the results depend on the processing

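No paired analysis was made: the labels give no pairing of KTS-minus with M15 libraries beyond replicate numbers, and no test was run. The main numbers were 6 regions, 4 broad in both KTS-minus libraries, 1 in both M15 libraries and 2 in at least 3 libraries. They became 23 and 12 (regions, both KTS-minus) at 8000 bp. They became 2, 2, 0 and 0 at 15000 bp, and 0 throughout at 20000 bp, which left no further value. With chromosome X and the chromosome 10 segment kept in they were 69, 58, 7 and 15. With an overlap of 50% of both peaks, 4 regions met the rule, of which 2 were broad in both KTS-minus libraries and 1 in at least 3. Joining across gaps of up to 1000 bp gave 125, 99, 1 and 33, and the widest 1% of each list gave 442, 349, 30 and 125. A broad peak in at least 3 libraries left 2 regions. Leaving out 1 library gave 2 to 6 regions and 0 to 1 broad in at least 3.

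Chromosome 4 held 50% of the regions and 100% at 15000 bp. At 8000 bp the largest share on 1 chromosome fell to 21.7%, with 5 of 23 regions each on chromosomes 4 and 5. The largest share was 17.6% with joining across gaps and 14.0% for the widest 1% of each list, and the chromosome was not recorded. With chromosome X and the segment kept in, it was 46.4%, on a chromosome other than 4. The share of regions with 2 or more narrower peaks in M15 replicate 1, 40%, was 0% at 15000 bp and with at least 3 libraries. It was 0% to 50% when 1 library was left out, and the same share for KTS-minus replicate 2 was 0% to 100%. The coverage ratio to narrower peaks was 1.94 in M15 replicate 2 at 8000 bp and 2.83 in KTS-minus replicate 1 at 15000 bp. With chromosome X and the segment kept in it was 0.898 in M15 replicate 1, where it turned round, and 1.81 in M15 replicate 2. Against peaks from 5000 bp up to the threshold it was 1.87 and 1.22 in KTS-minus replicates 1 and 2 and 1.68 and 1.59 in M15 replicates 1 and 2. By max signal it was 3.35 and 2.43 in KTS-minus replicates 1 and 2 and 2.94 and 6.29 in M15 replicates 1 and 2. The cause of these shifts was not tested beyond what each setting changes by construction. In all, 90 values stayed within their limits, which were wide. For counts the limit was a factor of 1.5, and for shares of 2 to 6 regions an exact 95% binomial interval. For the rest it was 1 SD between the replicates of a line, or of the M15 line where KTS-minus gave 1 value. The binomial interval treats regions as independent, which they need not be, so staying within these limits does not show stability.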

Other observations

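Broad peaks outside the 6 regions were few in the lists other than KTS-minus replicate 1. KTS-minus replicate 2 had a pair of neighbours on chromosome 1, of 14515 bp from 85236049 to 85250563 and of 15169 bp from 85250653 to 85265821, at mean coverages of 16.5 and 18.5. KTS-minus replicate 1 had no listed peak at either, and none from 85225113 up to 87344278. Most of that gap is common to the lists: none of the 4 used here has a peak from 85343389 to 87343679, a stretch of 2000291 bp. Whether the lists used here are complete at this place is not known, so nothing is read from the missing KTS-minus replicate 1 peak. M15 replicate 1 covered them to 39.2% and 38.6% and M15 replicate 2 to 84.4% and 83.6%, and the widest M15 replicate 2 peak there was 9411 bp. The third broad peak of KTS-minus replicate 2 outside the regions, on chromosome 5 from 136098747 to 136108746, was exactly 10000 bp wide, and KTS-minus replicate 1 held 3 peaks there, the widest of 7335 bp. The broad M15 replicate 1 peak that matched no other, on chromosome 17 from 35833568 to 35844078, was 10511 bp wide. The other libraries covered its span nearly as fully in narrower peaks: 98.7% and 81.1% in KTS-minus replicates 1 and 2 and 82.0% in M15 replicate 2.

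The parts left out held most broad peaks. Chromosome X had 294 and 48 in KTS-minus replicates 1 and 2 and 0 and 7 in M15 replicates 1 and 2. The chromosome 10 segment had 205 and 50 in KTS-minus and 14 and 23 in M15.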
